A study of Mus musculus with 12 samples.

Results

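Aminoacyl-tRNA synthetases, the enzymes that join each amino acid to its transfer RNA, were followed in mouse spleen T cells kept in co-culture with cells that the labels call Res. All symbols made of 1 capital letter and "ars", with or without a final digit, were taken from the deposited gene table, together with Farsa, Farsb, Eprs and Tarsl2. This gave 38 genes of the 53762 symbols in the table, and no measured value entered the choice. All 38 passed the filter on low counts, as did 16945 symbols in all. Symbols are written as in the table, where Aars, Gars, Kars, Wars and most of the others stand for genes that newer lists write with a final 1.

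RNA was sequenced from T cells of 4 groups with 3 libraries each. Control 24 h and control 48 h were T cells co-cultured for 24 or 48 h with Res_ctrl cells, and shFabp7 24 h and shFabp7 48 h were T cells co-cultured for the same times with Res_shFabp7 cells, which by their name carry a short hairpin RNA against Fabp7, a fatty acid binding protein gene. The construct was thus a property of the partner cells and not of the T cells that were sequenced. All groups shared the spleen source, the co-culture and a medium of RPMI-1640 with serum and antibiotics, and there was no group of T cells without partner cells. The study asked for genes expressed at different levels in T cells with the 2 kinds of partner. The strain and age of the animals, the origin of the Res cells, the hairpin's sequence and the way T cells were separated from them before RNA isolation were not stated in the sources used here. Whether the 3 replicates of a group were separate cultures or animals is not stated, and the p-values therefore rest on the spread of these libraries alone, which may be technical.

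A synthetase activates its amino acid with ATP and then transfers it to the matching transfer RNA, and this charged transfer RNA feeds the ribosome. Mammalian cells have separate nuclear genes for the cytosolic enzymes and for those that serve the mitochondrial ribosome, with Gars and Kars each supplying both places from 1 gene. Several cytosolic enzymes sit together in the multi-synthetase complex, which is held by the scaffold proteins Aimp1, Aimp2 and Eef1e1. T cells that grow and divide raise protein synthesis, and many cytosolic synthetase genes are known targets of Atf4, the transcription factor of the amino acid response. Of the 38 genes, 21 had symbols not ending in 2 or were Tarsl2, a second cytosolic threonine enzyme, and are called cytosolic below, Gars and Kars included. The other 17 are the mitochondrial enzymes, whose symbols end in 2.

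Library totals were 31.95 to 40.64 M counts, and a synthetase gene had between 293 and 46619 counts in a library. Levels are given as CPM, counts scaled to a library of 1 M reads after TMM scaling, which adjusts library totals for differences in composition, and the scaling factors were 0.926 to 1.10. The summed CPM of 12 T cell markers was 4071 to 4261 in the libraries of 24 h and 3147 to 3282 in those of 48 h, with no separation of the sums by partner. Summed markers of B cells (8 genes, 12.4 to 23.3 CPM), monocytes and macrophages (9 genes, 3.56 to 9.87), neutrophils (8 genes, 2.38 to 6.92), dendritic cells (7 genes, 9.14 to 27.8), erythroid cells (5 genes, 0.451 to 1.23), epithelial cells (8 genes, 4.53 to 12.4) and fibroblasts (7 genes, 1.71 to 6.11) were low beside them. The 5 NK cell markers summed to 136.8 to 163.8 CPM, and at 48 h to 143.2 to 160.2 with the control and 139.1 to 142.9 with the shFabp7 partner. Cd209a and Krt14 had no count in any library. Neutrophil markers at 48 h were 4.79 to 6.92 CPM with the control partner and 2.38 to 3.63 with the shFabp7 partner, and epithelial markers were 6.79 to 7.58 and 4.53 to 6.06. At 24 h monocyte and macrophage markers were 7.31 to 9.87 CPM with the control and 6.07 to 7.11 with the shFabp7 partner, and epithelial markers 11.28 to 12.38 and 9.998 to 10.61. Single T cell markers also differed by partner. By the test described below, 1 of the 12 rose and 5 fell with the shFabp7 partner at 48 h. Of all genes, 19.9% rose and 11.6% fell. The part of these shifts in the results below was not tested. In bulk RNA, fewer cells of a type and less RNA per cell cannot be told apart.

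Promoter windows from RefSeq (GRCm38.p6, 250 bases before and 50 after the start) were found for 28 of the 38 genes, 14 cytosolic and 14 mitochondrial. Each was searched on both strands for TGATGNAA (the C/EBP-ATF composite site of the amino acid response), CACGTG (an E-box, as bound by Myc), TGACGTCA (a full cyclic AMP response element) and TTCNNNGAA (a STAT site). TGATGNAA was found in Aars, Gars, Iars, Tars and Yars, 5 of the 14 cytosolic windows, and in 0 of the 14 mitochondrial ones. It was present in 4.06% of all 27025 promoter windows. CACGTG was in 5 windows (Aars, Ears2, Farsb, Iars and Tars, against 7.24% of all), TTCNNNGAA in 3 (Aars, Kars and Nars2, against 8.47%) and TGACGTCA in 0 (1.88% of all). No 2 of these motifs overlapped in the windows below. These matches are descriptions of letters and not of bound sites. The 5 windows with TGATGNAA are shown because their genes share this motif, and Farsa is shown beside them as the gene with the largest partner difference at 48 h, which had none of the 4 motifs. Each stretch has 170 bases before the start and 30 from it on, 5′ to 3′ on the gene's strand, and capitals mark the motif letters (TGATGNAA appears as its reverse complement where it lies on the other strand). The positions of the first base of TGATGNAA, counted from 0 at the start, were -112 and 9 in Aars, -30 in Gars, 7 in Iars, -15 in Tars and 3 in Yars. Capitals also mark CACGTG at -146 in Aars, -69 in Iars and 19 in Tars, and TTCNNNGAA at -88 in Aars. The stretches lie on the plus strand at chr8:111033672-111033871 (Aars), chr6:55037831-55038030 (Gars), chr13:49681960-49682159 (Iars), chr4:129189733-129189932 (Yars) and chr8:84856816-84857015 (Farsa), and on the minus strand at chr15:11399629-11399828 (Tars).
Aars: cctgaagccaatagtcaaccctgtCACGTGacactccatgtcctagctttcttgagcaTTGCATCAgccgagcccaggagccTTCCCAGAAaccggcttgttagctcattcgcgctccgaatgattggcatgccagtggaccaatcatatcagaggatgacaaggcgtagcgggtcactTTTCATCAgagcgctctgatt
Gars: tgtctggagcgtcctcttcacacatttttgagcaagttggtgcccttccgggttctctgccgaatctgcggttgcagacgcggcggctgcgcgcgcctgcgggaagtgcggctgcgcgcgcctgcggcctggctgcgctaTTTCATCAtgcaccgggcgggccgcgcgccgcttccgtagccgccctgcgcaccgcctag
Iars: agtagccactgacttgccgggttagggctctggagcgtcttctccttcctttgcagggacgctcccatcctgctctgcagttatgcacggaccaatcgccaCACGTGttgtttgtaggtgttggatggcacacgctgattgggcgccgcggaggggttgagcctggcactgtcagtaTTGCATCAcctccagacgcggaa
Tars: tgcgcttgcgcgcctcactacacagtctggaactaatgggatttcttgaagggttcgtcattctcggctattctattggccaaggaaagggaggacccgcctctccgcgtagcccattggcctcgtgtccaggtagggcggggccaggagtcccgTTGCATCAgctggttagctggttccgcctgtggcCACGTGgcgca
Yars: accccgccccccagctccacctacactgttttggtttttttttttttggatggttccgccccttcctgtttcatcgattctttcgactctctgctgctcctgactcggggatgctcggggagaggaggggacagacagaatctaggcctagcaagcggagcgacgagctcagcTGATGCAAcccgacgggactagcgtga
Farsa: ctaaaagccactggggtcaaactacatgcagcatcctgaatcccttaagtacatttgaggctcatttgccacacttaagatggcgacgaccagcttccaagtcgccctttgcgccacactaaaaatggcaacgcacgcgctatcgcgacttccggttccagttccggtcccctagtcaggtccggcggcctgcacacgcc

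Levels of different genes were compared only per kb of the longest annotated coding transcript (GENCODE M21). The cytosolic enzymes had a median of 65.6 CPM per kb over the 12 libraries and the mitochondrial enzymes one of 10.1, a ratio of 6.50. Of the 21 cytosolic genes, 19 were above every mitochondrial gene except Lars2, and the exceptions were Cars (25.4 CPM per kb) and Tarsl2 (3.53). Single genes moved in this order with the length used. With the median length of a gene's coding transcripts, 8 cytosolic genes were above every mitochondrial gene except Lars2, since Tars2 was then at 98.4 CPM per kb, and Vars (485.2), Qars (280.5) and Sars (162.6) were above Kars (149.3). With the longest transcript, Kars, the lysine enzyme, was the highest cytosolic gene at 141.2 CPM per kb, followed by Gars (glycine) at 102.9 and Vars (valine) at 96.1. Among the mitochondrial genes Tars2 (threonine) followed Lars2 at 28.8 CPM per kb, and Mars2 (methionine) was the lowest at 2.59. Lars2, the mitochondrial leucine enzyme, had 224.3 ± 51.2 CPM per kb (SD over 12 libraries), the highest value of all 38 genes, and is treated separately below. Neighbours in the middle of the order by longest transcript, such as Farsa (68.9), Sars (66.8), Hars (65.9) and Qars (65.6), were closer to each other than the spread of Farsa, Sars or Hars over the groups.

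**Figure D1:**
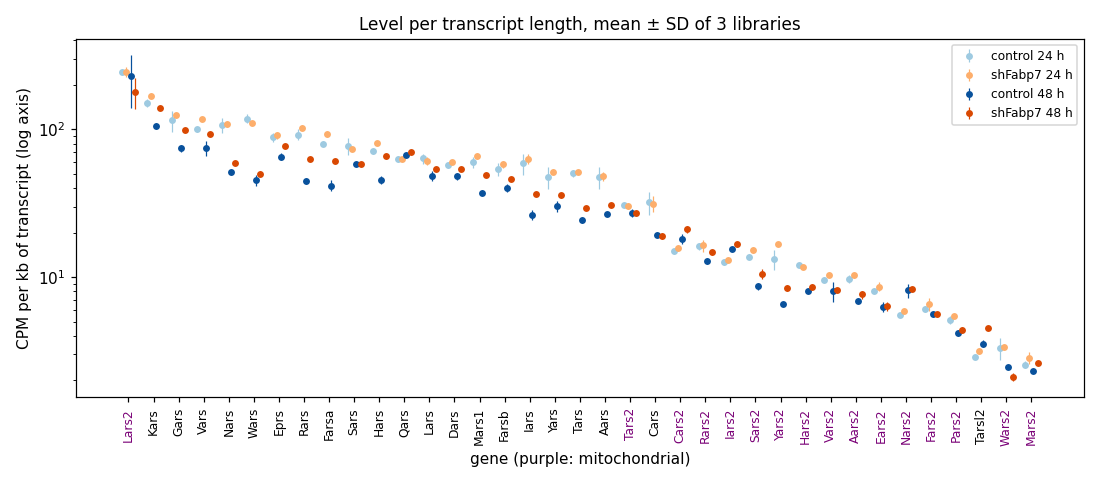
Levels of the synthetase genes reported as CPM per kb of transcript on a log axis, as mean ± SD of the 3 libraries of each group, in the order of the mean over 12 libraries and with mitochondrial names in purple. Most cytosolic genes lie to the left of the mitochondrial ones, with medians of 65.6 and 10.1 CPM per kb, and Lars2 is the exception at the far left.

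At 48 h, T cells with the shFabp7 partner had higher levels of 15 of the 21 cytosolic synthetase genes, and none was lower. The test was edgeR's quasi-likelihood test with Benjamini-Hochberg adjustment over all 16945 genes and a threshold of 0.05, and log2 fold changes are given ± SE. Of all genes, 19.9% passed upward and 11.6% downward. Of the 17 mitochondrial genes, 4 passed upward (Yars2, Sars2, Cars2 and Rars2) and 0 downward. At an unadjusted p of 0.05, 0 cytosolic and 1 mitochondrial gene (Wars2) were lower, and DESeq2 called 0 lower in either group. The median log2 fold change was 0.25 for the cytosolic genes, 0.06 for the mitochondrial genes and 0.01 for all genes. No test of the difference between the cytosolic and the mitochondrial genes was made.

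Farsa, the catalytic subunit of the cytosolic phenylalanine enzyme, had the largest difference at 48 h. It was at 83.5, 73.3 and 71.1 CPM in the 3 control libraries and at 109.2, 111.5 and 113 CPM in the 3 shFabp7 libraries. The groups did not overlap, and the log2 fold change was 0.55 ± 0.06 (1.46-fold, adjusted p = 3.61e-09). Its partner subunit Farsb, whose transcript shares 250 bases with Sgpp2, differed by 0.20 ± 0.06 (adjusted p = 0.0111), a call that was lost under upper-quartile scaling, under library totals and without control 48 h replicate 1 (highest adjusted p = 0.155).

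Hars, the cytosolic histidine enzyme, was at 96.0, 91.5 and 84.8 CPM in control 48 h and at 127.1, 129.1 and 136.5 CPM in shFabp7 48 h. Every shFabp7 library was above every control library, and the log2 fold change was 0.53 ± 0.05 (1.44-fold, adjusted p = 2.73e-09). Hars and its mitochondrial counterpart Hars2 are neighbours on opposite strands with 195 bases of shared transcript, and whether counting used strand was not stated in the sources used here. Hars2 itself differed by 0.08 at 48 h and did not pass.

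Rars and Iars, the arginine and isoleucine enzymes of the multi-synthetase complex, were next in size. Rars was at 89.1, 94.9 and 98.7 CPM in control 48 h and at 132.9, 130.0 and 135 CPM in shFabp7 48 h, with no overlap and a log2 fold change of 0.49 ± 0.06 (adjusted p = 3.96e-08). Iars was at 125.6, 115.7 and 109.1 CPM against 157.8, 162.6 and 162.2 CPM. These groups were also apart, with a log2 fold change of 0.46 ± 0.09 (adjusted p = 0.00166).

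Gars and Kars, which supply both the cytosol and mitochondria, rose with the shFabp7 partner at 48 h. Gars was at 185.7, 178.4 and 166.3 CPM in control 48 h and at 232.1, 235 and 235.9 CPM in shFabp7 48 h (0.41 ± 0.08, adjusted p = 3.06e-04). Kars, which is also a member of the complex, was at 235.0, 238.1 and 219.8 CPM against 305.4, 309.5 and 300.4 CPM (0.40 ± 0.05, adjusted p = 2.95e-07). Neither gene's groups overlapped.

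The other cytosolic genes that rose at 48 h were Mars1 (methionine, 0.40 ± 0.06), Tarsl2 (0.35 ± 0.09), Vars (0.31 ± 0.06), Tars (threonine, 0.27 ± 0.05), Eprs (the fused glutamate and proline enzyme, 0.24 ± 0.06), Nars (asparagine, 0.20 ± 0.06), Dars (aspartate, 0.17 ± 0.05) and Lars (leucine, 0.15 ± 0.06), beside Farsb. The calls of Nars, Dars and Lars were each lost under upper-quartile scaling and library totals and without at least 1 of the compared libraries. Of 14 settings, the call was kept in 10 for Nars and for Dars but in only 5 for Lars. Of the 8 enzymes of the multi-synthetase complex, 7 passed, all but Qars (glutamine, 0.06, adjusted p = 0.356), with a median of 0.32. Of the 13 cytosolic enzymes outside it, 8 passed, with a median of 0.25.

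Sars, the serine enzyme, was the cytosolic gene with the smallest difference at 48 h. It was at 201.7, 209 and 207.7 CPM in control 48 h and at 204.8, 206.3 and 209 CPM in shFabp7 48 h. The groups overlapped, and the log2 fold change was 0.00 ± 0.06 (adjusted p = 0.969). Cars (cysteine) stood close to it at -0.02 ± 0.11 (adjusted p = 0.912). Aars (alanine, 0.20 ± 0.08, adjusted p = 0.071, with 1326 of its 5750 transcript bases shared with Exosc6), Yars (tyrosine, 0.25 ± 0.09, adjusted p = 0.0504) and Wars (tryptophan, 0.14 ± 0.06, adjusted p = 0.0535) did not pass, and each passed under some of the alternatives, DESeq2 among them.

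Among the mitochondrial enzymes Yars2, for tyrosine, had the largest rise at 48 h. It was at 18.75, 17.96 and 18.81 CPM in control 48 h and at 22.4, 24.7 and 23.8 CPM in shFabp7 48 h. The groups did not overlap, with a log2 fold change of 0.35 ± 0.08 (adjusted p = 9.79e-04). Sars2, for serine, was at 16.9, 16.5 and 15.2 CPM against 21.4, 18.5 and 18.8 CPM (0.28 ± 0.08, adjusted p = 0.00531), again without overlap. Cars2 (0.21 ± 0.07) and Rars2 (0.19 ± 0.07) rose less. The calls of Sars2, Cars2 and Rars2 were each lost under upper-quartile scaling, under library totals and without 1 or more of the compared libraries, while that of Yars2 held in each of these settings. Of 14 settings, the call was kept in 11 for Sars2, in 9 for Cars2 and in only 5 for Rars2.

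Wars2, the mitochondrial tryptophan enzyme, had the lowest value after Lars2. It was at 10.98, 11.19 and 10.63 CPM in control 48 h and at 9.07, 9.90 and 8.87 CPM in shFabp7 48 h, where every library was below the control libraries. Its log2 fold change of -0.24 ± 0.10 did not pass (adjusted p = 0.0757), and it passed under upper-quartile scaling, under library totals and in a fit of the compared groups alone. Libraries that did not overlap, with shFabp7 the higher, were counted for 18 of 21 cytosolic and 7 of 17 mitochondrial genes, against 25.7% of all genes at 48 h.

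**Figure D2:**
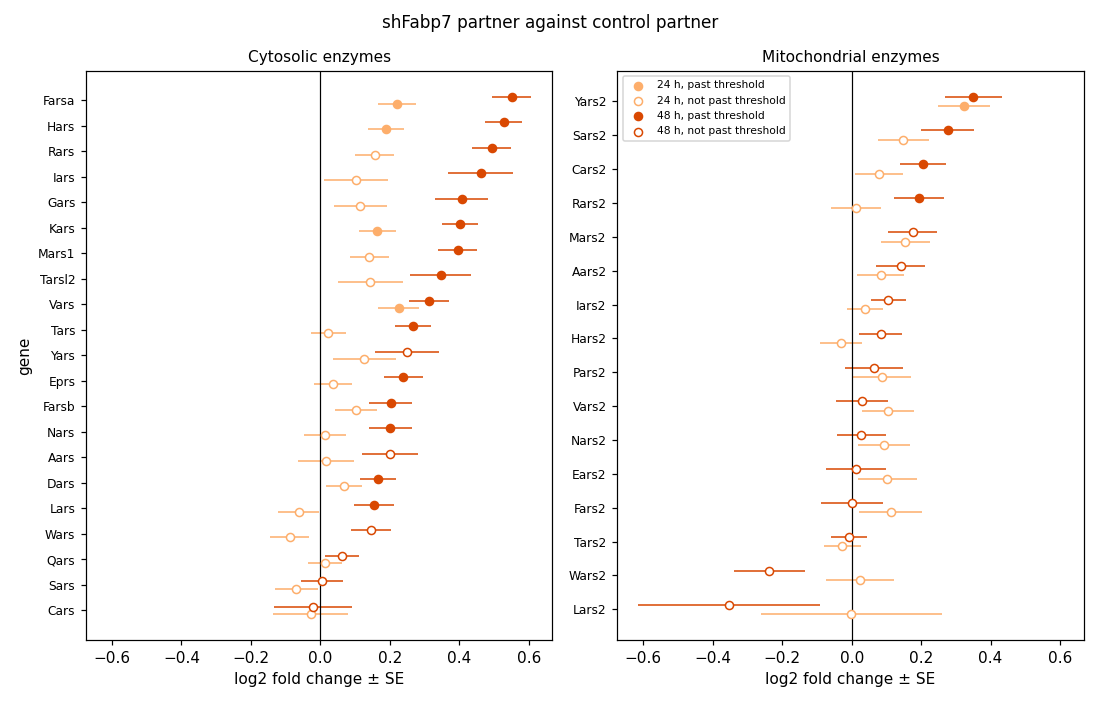
Log2 fold change ± SE of the synthetase genes reported, shFabp7 partner against control partner, at 24 h (pale) and 48 h (dark), with filled points for genes past the adjusted p threshold of 0.05. At 48 h 15 cytosolic and 4 mitochondrial points are filled, all to the right of 0, and Farsa leads at 0.55.

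At 24 h fewer genes passed and the differences were smaller. The cytosolic genes Vars, Farsa, Hars and Kars and the mitochondrial gene Yars2 were higher with the shFabp7 partner, 5 of 38 in all, and 0 were lower. Of all genes, 6.22% passed upward and 4.65% downward. At an unadjusted p of 0.05, 0 of the 38 were lower, and DESeq2 called 6 cytosolic and 1 mitochondrial gene higher and 0 lower. The medians were 0.10 for the cytosolic and 0.08 for the mitochondrial genes, and -0.00 for all genes. Libraries were apart, with shFabp7 the higher, in 6 cytosolic and 4 mitochondrial genes, against 15.0% of all genes.

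Farsa at 24 h was at 140.5, 150.2 and 147.1 CPM with the control partner and at 175.2, 161.9 and 172.8 CPM with the shFabp7 partner (0.22 ± 0.05, adjusted p = 0.00825). Hars was at 136.3, 147.1 and 140.5 CPM against 161.3, 164.2 and 158 CPM (0.19 ± 0.05, adjusted p = 0.0169), and Kars at 306.6, 345.7 and 337.8 CPM against 382.3, 357.4 and 369.8 CPM (0.16 ± 0.05, adjusted p = 0.0367). In all 3 genes the groups did not overlap. Vars differed by 0.23 ± 0.06 (adjusted p = 0.011), and Yars2, at 35.6, 43.6 and 32.6 CPM against 47.0, 47.8 and 45.2 CPM, by 0.32 ± 0.08 (adjusted p = 0.00522). The call of Hars was lost under library totals and without control 24 h replicate 1, and that of Kars in 6 of 14 settings, in which its highest adjusted p was 0.186.

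Control 24 h replicate 3 stood apart in several cytosolic genes. Iars was at 220.7, 252.9 and 305.7 CPM in control 24 h and at 289.5, 291.5 and 256.1 CPM in shFabp7 24 h, so that the third control library was above all the others. Gars (238.4, 258.3 and 322.5 CPM against 298.9, 306 and 282.5) and Sars (246.4, 266.7 and 317.9 CPM against 260.2, 269.4 and 262.8) had the same order. The same library was the highest of its group for the amino acid response genes Asns (asparagine synthetase, 101.9, 117 and 169.4 CPM), Trib3 (8.21, 7.84 and 21.96 CPM) and Chac1 (4.27, 5.50 and 14.5 CPM). These 3 were picked from a list of 24 such genes after their values had been seen. How the other genes of the list stood in that library is not given here. Aars, Yars, Nars, Cars, Lars, Tars, Mars1, Eprs and Wars were among the other cytosolic genes highest in that library of the group. Dars, Farsb, Qars and Rars were lowest there. The promoter windows of Iars, Gars, Aars, Yars and Tars, shown above, hold TGATGNAA. Those of Sars, Mars1 and Eprs hold none of the 4 motifs, and no window was found for Nars, Cars, Lars or Wars. Without that library 9 cytosolic genes passed at 24 h in place of 4, with Gars (adjusted p = 0.00238), Yars (0.00347), Mars1 (0.00671), Iars (0.0108) and Aars (0.0476) added. The share of all genes that passed in that fit is not given here, so the change in number is not a result about synthetase genes alone. The part of this library's amino acid response genes in the partner comparison was not tested.

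Between 24 and 48 h the cytosolic synthetase genes fell with either partner. With the control partner 19 of the 21 fell and 1 rose, and with the shFabp7 partner 19 fell and 2 rose. Of all genes, 32.0% fell and 35.8% rose with the control partner, and 30.2% fell and 35.9% rose with the shFabp7 partner. The median log2 fold changes were -0.64 and -0.35 for the cytosolic genes, against 0.04 and 0.06 for all genes. Of the 17 mitochondrial genes 10 fell and 4 rose with each partner, with medians of -0.26 and -0.31. Markers of other cells differed between the times as well, with either partner. Those of dendritic cells summed to 9.14 to 11.1 CPM at 24 h and 23.7 to 27.8 at 48 h, those of fibroblasts to 1.71 to 2.36 and 4.66 to 6.11, those of B cells to 12.4 to 16.1 and 19.5 to 23.3, and those of epithelial cells to 9.998 to 12.38 and 4.53 to 7.58. Their part in the time differences was not tested.

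Wars, the cytosolic tryptophan enzyme and a gene known to be induced by interferon gamma, had the largest fall. It was at 327.6, 314.1 and 358.9 CPM in control 24 h and at 139.6, 119.5 and 124.8 CPM in control 48 h, a log2 fold change of -1.38 ± 0.06 (adjusted p = 1.62e-20). With the shFabp7 partner it went from 316.6, 303.1 and 321.5 CPM to 135.7, 142.9 and 145.8 CPM (-1.15 ± 0.06, adjusted p = 2.36e-18). No 48 h library reached the level of a 24 h library. Iars (-1.15), Nars (-1.07), Tars (-1.05) and Rars (-1.04) followed with the control partner, and their values with the shFabp7 partner were -0.79, -0.88, -0.81 and -0.71.

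In the 24 h libraries Rars was at 201.1, 206.9 and 174.6 CPM with the control and at 214.6, 225.5 and 209.6 CPM with the shFabp7 partner, all above the 89.1 to 135 CPM of the 48 h libraries. Yars2 had the largest fall among mitochondrial genes, by 1.01 with the control and by 0.98 with the shFabp7 partner on the log2 scale. Sars2 went from 25.1, 25.4 and 26.7 CPM to the values of 15.2 to 16.9 CPM at 48 h with the control partner (-0.67) and from 26.8, 29.3 and 29.4 CPM with the shFabp7 partner (-0.54). Wars2 fell from 16.5, 11.9 and 15.4 CPM with the control partner (-0.41) and from 15.1, 14.8 and 14.5 CPM with the shFabp7 partner (-0.67).

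A few genes moved the other way. Nars2, the mitochondrial asparagine enzyme, was at 21.2, 21.5 and 20.1 CPM in control 24 h and at 27.3, 31.0 and 33.9 CPM in control 48 h (0.56, adjusted p = 3.63e-08). With the shFabp7 partner it was at 22.3, 21.6 and 23.1 CPM at 24 h and at 31.2, 31.3 and 31.5 CPM at 48 h (0.49, adjusted p = 4.59e-07), and the times did not overlap with either partner. Iars2 (isoleucine, 0.29 and 0.36) and Cars2 (cysteine, 0.29 and 0.41) were also among the mitochondrial genes that rose with both partners. Among the cytosolic genes Tarsl2 rose with both (0.31 and 0.51), and Qars rose with the shFabp7 partner by 0.14 ± 0.05 (adjusted p = 0.0113), while with the control partner it had 0.09 (adjusted p = 0.0906). The call of Qars was lost with RLE scaling, without the filter and without any 1 of the shFabp7 24 h libraries. Transcripts of Nars2, Iars2, Cars2 and Tarsl2 share bases with a neighbouring gene's transcript (284, 2034, 217 and 122), so reads there may have been split or dropped in counting.

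Scaling bears on the size of these time differences. With library totals in place of TMM the median of all genes moved up by 0.19 (log2) with the control partner and by 0.15 with the shFabp7 partner, and upper-quartile scaling moved it by 0.10 with the control partner. The cytosolic medians kept their sign (-0.45 and -0.21 with library totals), but under library totals the mitochondrial genes that fell with the control partner were 5 in place of 10. Tars2, which fell by 0.17 with the control partner, had 0.02 under library totals. Of all called genes at 48 h, 3380 were higher and 1972 lower with the shFabp7 partner under TMM, 2125 and 3195 under upper-quartile scaling and 2157 and 3168 under library totals. At 24 h they were 1054 and 788 under TMM, 1581 and 619 under the RLE size factors, 753 and 1035 under upper-quartile scaling, 604 and 1214 under library totals, and 1898 and 636 with DESeq2. The median of the mitochondrial genes for the partner at 48 h turned from 0.06 to -0.02 under both upper-quartile scaling and library totals, while that of the cytosolic genes was 0.16 and 0.17. The median of all genes moved as well, from 0.01 to -0.07 under both, so that the mitochondrial median stayed above it.

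**Figure D3:**
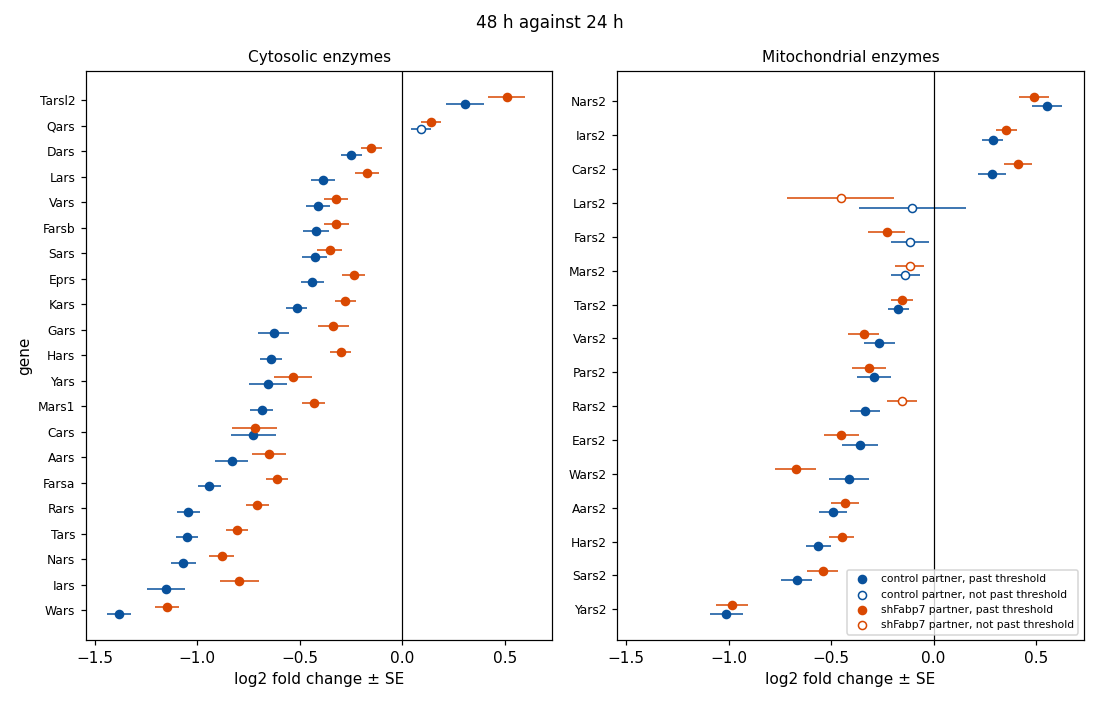
Log2 fold change ± SE from 24 to 48 h for the synthetase genes reported, blue with the control and orange with the shFabp7 partner, filled where the adjusted p passed 0.05. Wars lies farthest to the left at -1.38 with the control partner, and Nars2 lies to the right of 0 at 0.56.

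The partner difference at 48 h was set against that at 24 h as an interaction contrast in the same fit. It was positive and passed for 4 cytosolic genes, Hars (0.34 ± 0.07, adjusted p = 0.00548), Farsa (0.33 ± 0.08, adjusted p = 0.00976), Rars (0.34 ± 0.08, adjusted p = 0.0099) and Tars (0.24 ± 0.07, adjusted p = 0.0426). No mitochondrial gene passed in either direction, and at an unadjusted p of 0.05 and by DESeq2 the number was also 0. Of all genes, 4.43% passed upward and 1.17% downward. The medians were 0.20 for the cytosolic, 0.02 for the mitochondrial and 0.04 for all genes. The number of cytosolic genes past the threshold ranged from 0 (without control 24 h replicate 2 or shFabp7 24 h replicate 3) to 7 (without control 48 h replicate 1), and was 2 without control 24 h replicate 3 or shFabp7 24 h replicate 1 or 2. The shares of all genes that passed in those fits are not given here. Of 19 settings other than the minimum fold, the call was kept in 17 for Hars, in 15 for Farsa and for Rars, and in 3 for Tars, which lost it with every other scaling in edgeR, without the filter and with most libraries left out.

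The sum over the 21 cytosolic genes was 4659 ± 333.9 CPM in control 24 h, 4900 ± 113.6 in shFabp7 24 h, 2978 ± 58.7 in control 48 h and 3587 ± 5.57 in shFabp7 48 h (SD, n = 3). The sum over the 16 mitochondrial genes other than Lars2 was 538.3 ± 6.07, 566.1 ± 7.57, 505.9 ± 10.9 and 538.9 ± 8.48 CPM in the same order. The cytosolic sums of control and shFabp7 overlapped at 24 h and were apart at 48 h. The mitochondrial sums without Lars2 were apart at both times, at 534.6 to 545.3 against 557.7 to 572.4 CPM at 24 h and 493.4 to 512.9 against 533.4 to 548.7 CPM at 48 h. As a percentage of all counts, without TMM factors, the mitochondrial sums overlapped at both times (0.0542 to 0.0562% against 0.0546 to 0.0564% at 48 h), and the cytosolic sums were still apart at 48 h (0.3195 to 0.3293% against 0.3674 to 0.3717%). Cytosolic and mitochondrial enzymes of the same amino acid gave 18 pairs of genes. The cytosolic gene of a pair had the more positive partner difference in 15 of 18 pairs at 48 h (median difference 0.22) and in 6 of 18 at 24 h (median difference -0.03). It had the more negative time difference in 16 of 18 pairs with the control partner and in 11 of 18 with the shFabp7 partner.

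**Figure D4:**
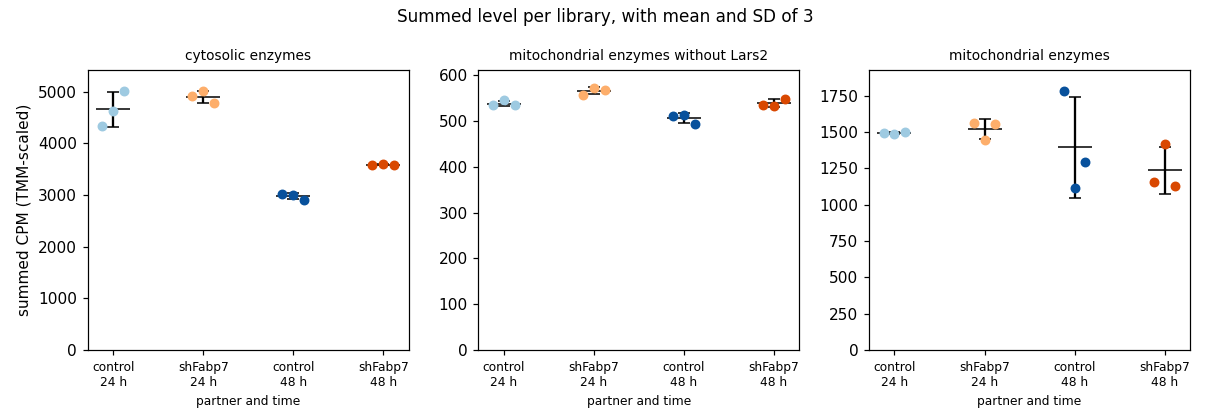
Summed CPM per library for the 21 cytosolic genes, the 16 mitochondrial genes without Lars2 and all 17 mitochondrial genes, with mean and SD of 3 libraries, each axis starting at 0. The cytosolic sum is 2978 in control 48 h and 3587 in shFabp7 48 h, and the spread of the right panel at 48 h comes with Lars2.

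Lars2 had the largest SE of all 38 genes in each partner comparison, with libraries of 1 group far apart at 48 h but not at 24 h. It was at 956, 943 and 965 CPM in control 24 h and at 1005, 872 and 985 CPM in shFabp7 24 h. At 48 h it was at 1271, 599.9 and 796 CPM with the control partner and at 623, 886 and 581 CPM with the shFabp7 partner, so that the groups overlapped widely. None of its comparisons passed, with log2 fold changes for the partner of -0.00 ± 0.26 at 24 h and -0.35 ± 0.26 at 48 h (adjusted p = 0.364). Rn18s, a ribosomal RNA gene, took 0.773 to 1.62% of all counts and was at 12190, 7052 and 9835 CPM in control 48 h and at 7939, 12100 and 8433 CPM in shFabp7 48 h. In each 48 h group the library with the most Lars2 also had the most Rn18s. Iars2, another mitochondrial enzyme gene, which was picked after its values had been seen, was at 85.5, 83.9 and 84.5 CPM and at 88.5, 89.4 and 95.3 CPM in these libraries. Other mitochondrial genes spread more than Iars2 in control 48 h, such as Vars2 at 35.5 ± 5.60 CPM and Nars2 at 30.7 ± 3.30 CPM (SD), where Lars2 had 888.9 ± 344.8 CPM. The longest coding transcript of Lars2 shares 72 bases at 98.6% identity with the antisense transcript Gm15564. No ribosomal RNA gene matched a synthetase transcript at looser cutoffs, but only GENCODE M21 transcripts were searched. Whether that set holds the Rn18s sequence was not checked, so the search cannot show whether Lars2 shares sequence with it. What Lars2 counts stand for was not tested. Without Lars2 the mitochondrial medians were 0.09 at 24 h and 0.07 at 48 h for the partner.

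**Figure D5:**
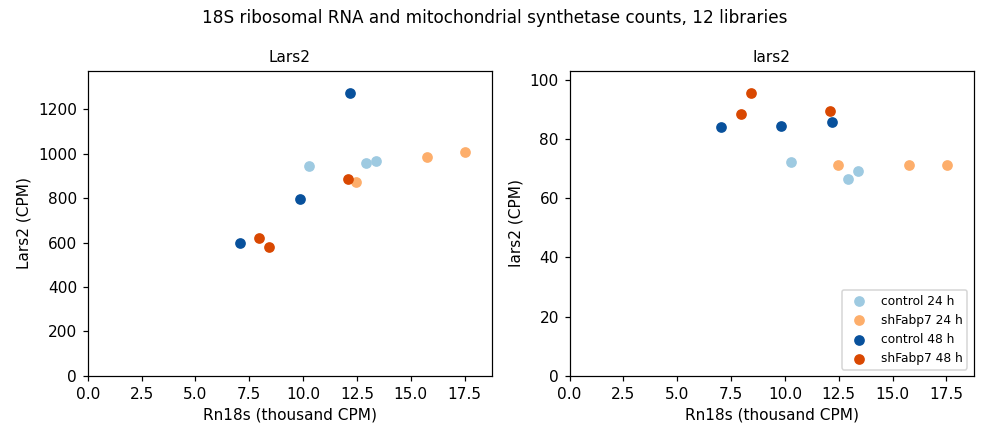
Lars2 (left) and Iars2 (right) CPM against Rn18s CPM in the 12 libraries, coloured by group, all axes from 0. At 48 h Lars2 runs from 581 to 1271 CPM and is highest where Rn18s is highest in each group, while Iars2 stays between 83.9 and 95.3 CPM.

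Of the 3 scaffold genes of the multi-synthetase complex, 2 rose with the shFabp7 partner at each time, against 6.22% of all genes at 24 h and 19.9% at 48 h. Aimp2 was at 30.3, 26.0 and 22.5 CPM in control 48 h and at 43.6, 44.9 and 44.9 CPM in shFabp7 48 h, with no overlap and a log2 fold change of 0.76 ± 0.07 (adjusted p = 1.31e-09). At 24 h its log2 fold change was 0.35 ± 0.07 (adjusted p = 0.00119). Eef1e1 was at 31.7, 35.2 and 35 CPM against 47.0, 48.1 and 46.0 CPM at 48 h (0.47 ± 0.07, adjusted p = 2.31e-06). Aimp1 was at 69.96, 78.5 and 79.4 CPM against 75.4, 74.3 and 77.0 CPM, with overlap and a log2 fold change of -0.01 (adjusted p = 0.94). All 3 fell from 24 to 48 h with either partner.

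Of 6 genes that serve charged transfer RNA in mitochondria, 3 rose with the shFabp7 partner at 48 h, against 19.9% of all genes. These were the elongation factors Tufm (0.40 ± 0.06, adjusted p = 2.48e-06) and Tsfm (0.46 ± 0.07, adjusted p = 3.95e-06), and Qrsl1, a subunit of the glutamine amidotransferase that completes mitochondrial glutaminyl transfer RNA (0.23 ± 0.09, adjusted p = 0.0453). At 24 h 1 of the 6 rose (6.22% of all genes). Of 24 genes of the amino acid response, 3 rose and 1 fell at 48 h, with a median of -0.01, where 19.9% of all genes rose and 11.6% fell. The stress factor Ddit3 fell by 0.46 ± 0.07 (adjusted p = 9.22e-06), and Shmt2 (mitochondrial serine and glycine metabolism, 0.43 ± 0.08), Phgdh (serine synthesis, 0.22 ± 0.05) and Ppp1r15a (eIF2 dephosphorylation, 0.18 ± 0.06) rose. Asns was at 78.0, 96.8 and 86.4 CPM in control 48 h and at 87.0, 86.4 and 78.7 CPM in shFabp7 48 h, with overlap. At 24 h 1 of the 24 fell, close to the share of all genes that did (4.65%), and 0 rose, against 6.22% of all genes. The call of the gene that fell was lost without control 24 h replicate 3, when 3 others rose, and without shFabp7 24 h replicate 1 or 3. The shares of all genes called in those fits are not given here.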

How the data were processed

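The authors' deposited table holds unnormalized counts of reads for each gene symbol in 12 separate libraries. The tools HTSeq 0.6.1p1, TopHat2 2.0.13 and CASAVA 1.8.2 and the build GRCm39 are named in the submitters' processing notes. The sources used here give neither the strand mode nor the annotation. Genes were filtered with filterByExpr (minimum count 10, minimum total 15) and scaled by TMM. Comparisons were tested by quasi-likelihood in edgeR 4.0.16 (R 4.3.3, robust, all 12 libraries in 1 fit, no covariate), with Benjamini-Hochberg adjustment over 16945 genes and a threshold of 0.05 in 5 comparisons. The procedure was also run on simulated counts, drawn for each gene on its own and without a general shift in composition between groups. Its outcome is not given here, and such counts cannot test the choice of scaling. No 2 replicates were as close as counting noise alone would leave them (chi-square of 4.20 to 13.9 per degree of freedom), and all were kept as separate samples. As alternatives, the fit was repeated with DESeq2 1.42.0, with RLE factors, upper quartiles or library totals for scaling, without the filter or with a stricter one (1 CPM in 3 libraries and 100 counts), with the compared groups alone, with a replicate block, against a minimum fold of 1.2, and without each library in turn.

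The members, the 7 pathway lists (complex scaffold, charging quality control, mitochondrial charging partners, transfer RNA processing and export, elongation factor 1, amino acid response, amino acid carriers), the markers and the tests were chosen with earlier results of these data known. Values in every library were given for Wars, the 4 other cytosolic and the 4 mitochondrial genes with the largest difference at 48 h, Gars, Kars and the cytosolic gene with the smallest. Up to 4 genes per list were named by adjusted p at 48 h. Nars2, Iars2, Aimp1, Asns, Trib3 and Chac1 were chosen for their values after these had been seen. Values of 1 gene are not reported here, though it is part of the counts, medians and sums. Lengths came from GENCODE M21 (GRCm38), promoters from RefSeq, and shared transcript stretches (98% identity, at least 70 bases) from blastn 2.17.0. The files' build differs from that of the promoters, which were matched by symbol.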

Additional observations from a re-analysis of the deposited data

Results flagged for a closer look

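The partner difference differed between 48 and 24 h, by the interaction contrast of edgeR's quasi-likelihood test, in 4 synthetase genes and 3 genes of the lists. The differences of log2 fold change were 0.339 for Hars (adjusted p = 0.00548), 0.3303 for Farsa (adjusted p = 0.00976), 0.3359 for Rars (adjusted p = 0.0099) and 0.2433 for Tars (adjusted p = 0.0426). Among the list genes they were 0.4074 for Aimp2, a scaffold of the multi-synthetase complex (adjusted p = 0.012), 0.3076 for Ddx1, an RNA helicase of the transfer RNA ligase complex (adjusted p = 0.0113), and 0.3215 for Xpot, the transfer RNA exporter (adjusted p = 0.0175). In all 7 the shFabp7 libraries were the higher at 48 h, and the difference there was larger than at 24 h. The call of Aimp2 was lost without control 24 h replicate 2, shFabp7 24 h replicate 2 or 3, or control 48 h replicate 3. Those of Ddx1 and Xpot were both lost under upper-quartile scaling and without control 24 h replicate 2 or any 1 of the shFabp7 24 h libraries.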

How the results depend on the processing

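Calls held in every setting other than the minimum fold for 11 of 15 cytosolic and 1 of 4 mitochondrial genes that rose at 48 h, for 2 of 4 and 1 of 1 at 24 h, and for 0 of 4 in the interaction. For the falls over time they held for 18 of 19 cytosolic and 5 of 10 mitochondrial genes with the control partner, and for 16 of 19 and 7 of 10 with the shFabp7 partner. With 3 libraries a group, differences near or under the SE given could not be told from 0. By edgeR's test, some well above it did not pass either. Examples are Rars at 24 h (0.16 ± 0.06, adjusted p = 0.0657) and Yars at 48 h (0.25 ± 0.09, adjusted p = 0.0504).

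With a minimum fold of 1.2 the cytosolic genes higher were 0 at 24 h, 4 at 48 h and 0 in the interaction, and the mitochondrial genes higher were 0 at 24 h and 0 at 48 h. Over time that setting gave 0 cytosolic genes up, 2 mitochondrial up and 5 mitochondrial down with the control partner, and 1 cytosolic up, 11 cytosolic down and 6 mitochondrial down with the shFabp7 partner. Library totals gave 2 cytosolic genes higher at 24 h, and over time with the control partner 2 cytosolic up and 5 mitochondrial down. Upper-quartile scaling and library totals each gave 1 mitochondrial gene higher and 1 lower at 48 h, and the compared groups alone gave 1 lower. Over time with the control partner, upper-quartile scaling and the stricter filter each gave 2 cytosolic genes up. With the shFabp7 partner, RLE scaling and no filter each gave 1. The shares of all genes called with the minimum fold, either change of filter or the compared groups alone are not given here. Where the number of all genes called in a fit is not given, a changed count is not a result about synthetase genes alone.

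Leaving out each library in turn gave 2 to 9 cytosolic and 1 to 2 mitochondrial genes higher at 24 h, 13 to 15 and 2 to 4 at 48 h, and 0 to 7 cytosolic genes in the interaction. Over time it gave 1 to 2 cytosolic genes up with either partner. The cytosolic count at 24 h was 2 without control 24 h replicate 1 and 9 without replicate 3, and the mitochondrial count was 2 without shFabp7 24 h replicate 3. At 48 h the mitochondrial count was 2 without control replicate 3 or shFabp7 replicate 1 or 3. The shares of all genes called in these fits are not given here, so a changed count is not a result about synthetase genes alone.

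Signs turned only for values that had not passed, apart from Tars2 over time, and the cause was not tested. Lars2 at 24 h became 0.0261 with RLE scaling, 0.0281 with DESeq2 and 0.0230 without a filter, and -0.0196 to 0.0800 with a library left out. Wars2 at 24 h became -0.0018 with upper-quartile scaling and -0.01995 with library totals, and -0.0834 to 0.1349 with a library left out. Sars at 24 h was -0.1322 to 0.0627 with a library left out. Sars at 48 h became -0.0821 with upper-quartile scaling, -0.0804 with library totals, -0.0124 without a filter, -0.0139 with the stricter filter and -0.0204 in the compared groups alone, and -0.0121 to 0.0144 with a library left out. Lars2 over time with the control partner became 0.08345 with library totals, and -0.4514 to 0.1121 with a library left out. The interaction of Yars2 became -0.0344 with upper-quartile scaling, -0.0147 with library totals and -0.0128 without a filter, and -0.1547 to 0.0670 with a library left out, where that of Sars was -0.0874 to 0.1077.

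Samples with the same replicate number did not deviate together (r from -0.07 to 0.04 over 18 pairs). For different numbers r was -0.04 to 0.07 over 36 pairs. With 3 libraries a group, this cannot settle whether a number marks a shared culture or animal, which is not stated. With the replicate number as a block, 4 cytosolic and 1 mitochondrial gene were higher at 24 h, 16 and 4 at 48 h, and 3 and 0 in the interaction. The share of all genes called in that fit is not given here. The block added Wars at 48 h (adjusted p = 0.0497) and dropped Tars from the interaction. With median in place of longest transcript length, the ratio of cytosolic to mitochondrial levels was 7.86 in place of 6.50.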

Other observations

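Other genes around charging were counted in the same fit. Of 11 genes of transfer RNA end processing and export, 4 rose and 1 fell at 48 h, where 19.9% of all genes rose and 11.6% fell. Ddx1 (0.42 ± 0.05, adjusted p = 1.63e-07), Elac2, which trims the 3′ end (0.57 ± 0.07, adjusted p = 6.31e-07), and Xpot (0.36 ± 0.06, adjusted p = 1.53e-05) were among the 4 that rose, and Elac1 fell by 0.28 ± 0.08 (adjusted p = 0.00959). At 24 h 3 of the 11 rose (6.22% of all genes). Of 9 amino acid carriers, 5 rose at 48 h against 19.9% of all genes, among them Slc7a6 (0.32 ± 0.06, adjusted p = 3.77e-05) and Slc7a1 (0.33 ± 0.08, adjusted p = 0.00293), which carry cationic amino acids, Slc38a1 (0.23 ± 0.06, adjusted p = 0.00126) and Slc1a5 (0.24 ± 0.07, adjusted p = 0.0115), which carry glutamine. The carriers' number at 48 h was 3 under upper-quartile scaling, under library totals and without control 48 h replicate 3 or shFabp7 48 h replicate 3. For the fits without a library, the share of all genes is not given here. Their number at 24 h was 1 (6.22% of all genes), and 5 without control 24 h replicate 3, where the share of all genes is not given here.

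Of the 4 elongation factor 1 genes, 2 rose at 48 h against 19.9% of all genes, Eef1d (0.27 ± 0.05, adjusted p = 8.14e-05) and Eef1g (0.15 ± 0.05, adjusted p = 0.019), and 1 did under upper-quartile scaling, under library totals or without replicate 2 or 3 of either 48 h group. Among 4 genes of charging quality control, Dtd1 had the smallest adjusted p at 48 h (0.15 ± 0.08, adjusted p = 0.17), followed by Prorsd1 (0.09 ± 0.11, adjusted p = 0.584).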
